A study of Mus musculus with 12 samples.

Results

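The 7 genes followed here belong to cholesterol synthesis and its control: Hmgcs1, Idi1, Fdft1, Sqle, Lss, Srebf2 and Insig1. They are the 7 rows with these gene symbols among 15217 genes in the table, and all 7 were among the 11080 genes that passed a filter on low counts. Hmgcs1, Idi1, Fdft1, Sqle and Lss encode enzymes of the pathway, and Srebf2 and Insig1 encode regulators of it. Although the set is labelled as covering cholesterol uptake as well, none of the 7 encodes an uptake receptor. The cells were NIH-3T3, an established line of wild-type mouse fibroblasts. The dose of 4-thiouridine (4sU), an analogue of uridine that enters RNA made during labelling, was 0, 200 or 800 µM, and every library carries a time of 2 h. Its chemical conversion with iodoacetamide, which makes it read as C in sequencing (SLAM-seq), took place inside methanol-fixed cells at 50 °C for 30 min, or on isolated RNA in tubes at 37 °C for 1 h. Procedure, temperature and reaction time therefore cannot be told apart. The 6 groups are fixed cells with 800 µM, 200 µM or no 4sU and tubes with the same doses, with libraries A and B in each (n = 2). Separate cultures are not stated for A and B, so that p-values reflect the spread between libraries alone, and this spread may be technical.

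Cholesterol is built from acetyl-CoA through the mevalonate pathway, which makes isoprenoids first and then squalene and the sterol rings. The membrane-bound transcription factor SREBP-2, the product of Srebf2, drives the genes of this pathway, its own gene included. When sterols are plentiful, Insig proteins hold SREBP-2 and its escort Scap in the endoplasmic reticulum. When sterols fall, SREBP-2 moves to the Golgi, where it is cut, and the freed part enters the nucleus and binds sterol regulatory elements in promoters, often beside a CCAAT box that binds NF-Y. Insig1 is itself a SREBP target, which closes a feedback loop.

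By gene ID the members lie on 5 chromosomes of GENCODE M21 on GRCm38. Hmgcs1 lies at chr13:119690379-119708260 on the plus strand and Idi1 at chr13:8885501-8892451 on the plus strand. Fdft1 lies at chr14:63145150-63179578 on the minus strand, and its 3′ end overlaps the 3′ end of Ctsb, the gene of the lysosomal protease cathepsin B, on the opposite strand (chr14:63122462-63145923). Sqle lies at chr15:59315077-59331192 and Srebf2 at chr15:82147181-82205379, both on the plus strand, and Srebf2 holds the microRNA gene Mir33. Lss lies at chr10:76531588-76557138 and Insig1 at chr5:28071363-28078662, both on the plus strand. The sources used here do not give whether reads were counted by strand, so reads of Fdft1 and Ctsb may have been mixed where they overlap.

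Promoter sequence was at hand for 5 of the 7 members, from RefSeq on GRCm38.p6, as windows running from 250 bases before the annotated start to 50 bases after it. Hmgcs1, Insig1 and Srebf2 are shown because the first pair had the highest shares of new RNA and the third encodes the factor that acts on such promoters. Capitals mark matches to TCACNCCAC, a sterol regulatory element core, and to CCAAT, the NF-Y box, which reads ATTGG where it lies on the other strand. The windows are chr13:119690101-119690400, chr5:28071162-28071461 and chr15:82147019-82147318, all on the plus strand, written 5′ to 3′.
Hmgcs1: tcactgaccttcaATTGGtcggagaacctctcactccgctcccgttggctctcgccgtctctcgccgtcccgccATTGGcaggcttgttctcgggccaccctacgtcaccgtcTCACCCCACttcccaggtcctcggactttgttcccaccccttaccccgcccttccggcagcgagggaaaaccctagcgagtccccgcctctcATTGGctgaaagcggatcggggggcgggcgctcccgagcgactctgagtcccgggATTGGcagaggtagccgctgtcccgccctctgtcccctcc
Insig1: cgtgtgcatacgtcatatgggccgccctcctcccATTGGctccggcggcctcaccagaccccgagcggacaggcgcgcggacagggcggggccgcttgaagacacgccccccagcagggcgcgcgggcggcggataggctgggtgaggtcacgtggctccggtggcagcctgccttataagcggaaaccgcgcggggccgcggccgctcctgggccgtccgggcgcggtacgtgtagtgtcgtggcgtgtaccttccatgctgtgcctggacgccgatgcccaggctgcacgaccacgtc
Srebf2: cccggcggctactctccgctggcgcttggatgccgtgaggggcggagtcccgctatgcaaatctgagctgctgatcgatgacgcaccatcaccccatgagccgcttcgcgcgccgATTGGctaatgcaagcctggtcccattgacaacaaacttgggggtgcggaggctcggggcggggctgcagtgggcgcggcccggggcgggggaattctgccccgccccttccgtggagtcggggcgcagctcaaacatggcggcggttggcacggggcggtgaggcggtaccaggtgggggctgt
The Hmgcs1 window held the sterol regulatory element core once, at positions -137 to -129 from the start, and the NF-Y box 4 times. Among all 32851 RefSeq windows searched on both strands, 1.24% held that core, 37.4% held the NF-Y box and 0.441% held both. The core was found in none of the other 4 windows, while the NF-Y box was found in all 5, where Idi1 had 2 and Lss, Srebf2 and Insig1 had 1 each. With the shorter core CACNCCAC, which lies inside the longer one, the Insig1 window matched as well, at positions -9 to -2 on the other strand, against 6.24% of all windows. A match is a string of letters and not a measured binding site. Sites that differ from the searched letters were not counted, so a window without a match may still hold such an element.

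Levels are given as CPM, a gene's counts scaled to the effective library size. Library totals ranged from 3629634 to 7762635 counts. The libraries of a group differed by more than sampling noise, with a chi-square per degree of freedom of 3.23 to 22.8 over genes, and the fixed 800 µM pair differed most. All 12 of 12 markers of fibroblasts were in the table, with summed levels of 24377 to 30290 CPM in fixed cells and 21780 to 25434 CPM in tubes. The largest means over the 12 libraries were those of S100a4 (9293 CPM), Lgals1 (5176 CPM) and Vim (4451 CPM). Pdgfra averaged 83.3 CPM and Pdgfrb 25.2 CPM. Of 12 markers of leukocytes, epithelium, endothelium, liver and fat cells, 8 were in the table, with summed levels of 6.13 to 11.5 CPM in fixed cells and 3.32 to 11.1 CPM in tubes. Fewer cells and less RNA per cell cannot be told apart in such bulk samples.

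Per transcript length, Hmgcs1 was the most abundant of the 7 genes, with an RPKM (CPM per kilobase of gene length) of 111.8 ± 12.8 (SD over 12 libraries). Insig1 followed at 68.8 ± 15.4 RPKM, Fdft1 at 44.1 ± 12.8 RPKM and Sqle at 33.9 ± 4.97 RPKM. Idi1 at 17.8 ± 9.13 RPKM, Srebf2 at 17.3 ± 6.13 RPKM and Lss at 12.4 ± 2.32 RPKM were the lowest. Hmgcs1 stood above Insig1 in 12 of 12 libraries, Insig1 above Fdft1 in 10 and Sqle above Idi1 in 11. Other neighbours changed order with the procedure. Fdft1 stood above Sqle in 6 of 6 fixed libraries, at 40.8 to 68.9 RPKM against 25.0 to 33.2 RPKM, and in 1 of 6 tube libraries. Idi1 stood above Srebf2 in 5 of 6 fixed libraries and in 0 of 6 tube libraries. Srebf2 stood above Lss in 3 of 6 fixed libraries, where their values overlapped, and in 6 of 6 tube libraries.

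The first comparisons asked whether 4sU changed the level of the members. None of the 7 genes changed past the threshold at either dose in either procedure (edgeR quasi-likelihood test, Benjamini-Hochberg adjusted p under 0.05 over all genes tested, n = 2 libraries per group). At 200 µM in fixed cells 0 of 7 were called, against 0.812% of all genes, and at 800 µM in fixed cells 0 of 7 against 2.66%. In tubes 0 of 7 were called at 200 µM against 3.75% of all genes, and 0 of 7 at 800 µM against 1.87%. At an unadjusted p under 0.05, 0, 2, 4 and 1 of the 7 passed in these comparisons, beside 12.6%, 20.1%, 20.8% and 17.6% of all genes. DESeq2 called Lss at 800 µM in fixed cells and Hmgcs1 at 800 µM in tubes, and none of the 7 in the other pair of comparisons. Comparisons within a procedure share their libraries without 4sU. The median log2 fold change of the 7 was -0.13 at 200 µM and -0.13 at 800 µM in fixed cells, and -0.07 at 200 µM and 0.08 at 800 µM in tubes, beside medians over all genes of -0.00 to 0.03.

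**Figure D1:**
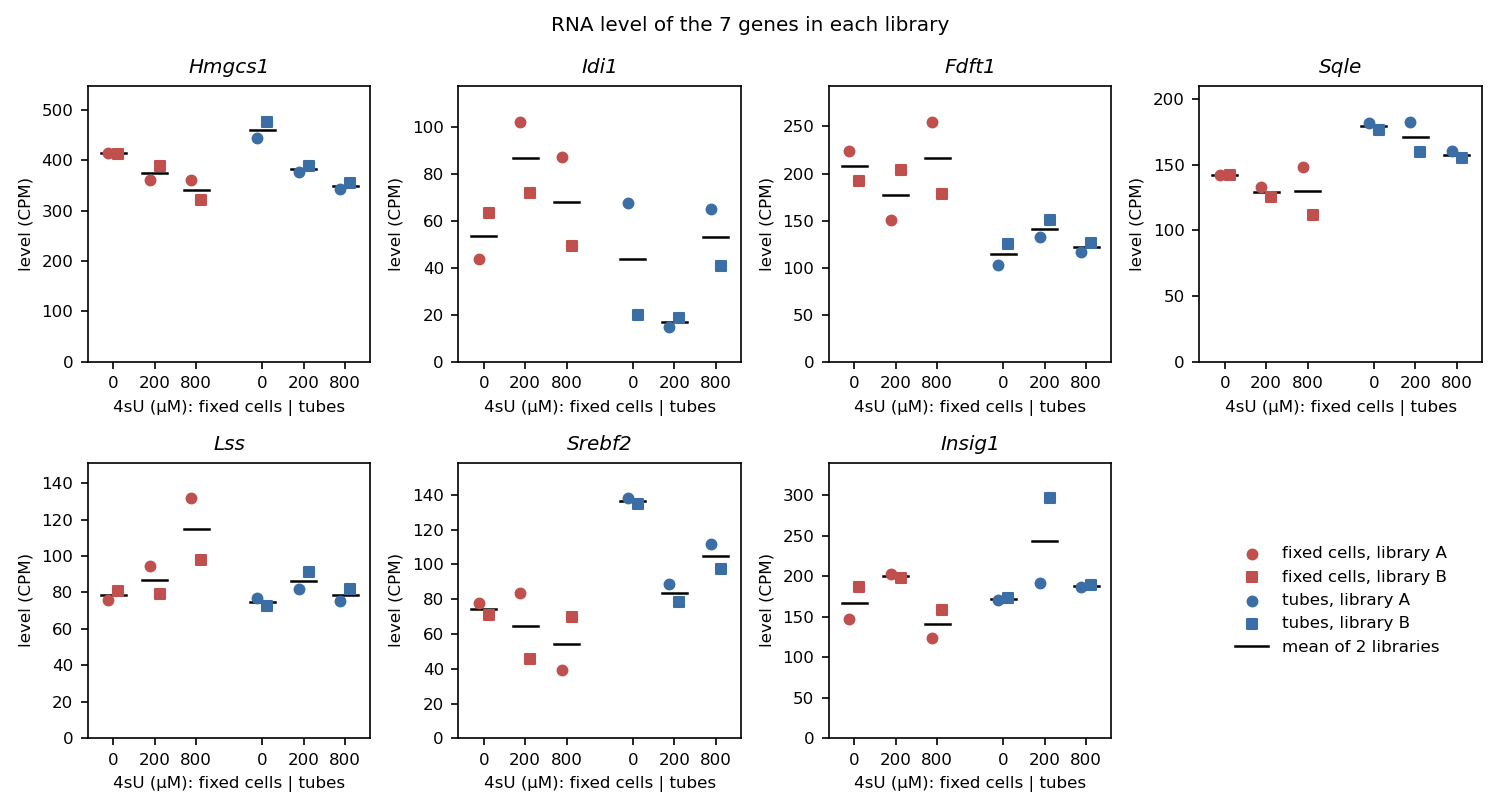
RNA level in CPM of each gene in every library, by 4sU dose, with fixed cells on the left and tubes on the right of each panel; black lines are means of 2 libraries. Idi1 spans 14.8 to 102 CPM, while Hmgcs1 stays between 321 and 476 CPM.

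Hmgcs1, the cytosolic synthase that makes HMG-CoA, the precursor of mevalonate, had little spread. In fixed cells it stood at 416 and 413 CPM without 4sU, 361 and 389 CPM at 200 µM, and 360.4 and 321 CPM at 800 µM. Its tube values were 445 and 476 CPM without 4sU, 377 and 389.7 CPM at 200 µM, and 343 and 355 CPM at 800 µM. In both procedures every library with 4sU lay below both libraries without it. Such an order of libraries was not tested, and its share over all genes was not determined, here or for the genes below. The log2 fold change of Hmgcs1 was -0.28 at 800 µM in fixed cells (95% interval -0.53 to -0.03, edgeR adjusted p = 0.19) and -0.40 at 800 µM in tubes (-0.65 to -0.15, edgeR adjusted p = 0.0945). At 200 µM it was -0.14 in fixed cells (adjusted p = 0.662) and -0.26 in tubes (adjusted p = 0.214, both edgeR).

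Idi1, which converts isopentenyl diphosphate to its reactive isomer, varied most of the 7. In fixed cells it stood at 44.0 and 63.3 CPM without 4sU, 102 and 72.0 CPM at 200 µM, and 87.2 and 49.4 CPM at 800 µM. The tube libraries had 67.8 and 19.8 CPM without 4sU, 14.8 and 18.8 CPM at 200 µM, and 65.3 and 40.9 CPM at 800 µM. The low values were those of tube library B without 4sU and both tube libraries at 200 µM. Its biological coefficient of variation was 25.95%, higher than that of 93.0% of the genes tested, against 9.07% for Hmgcs1. The log2 fold change at 200 µM was 0.70 in fixed cells (SE 0.36, edgeR adjusted p = 0.449) and -1.35 in tubes (SE 0.43, edgeR adjusted p = 0.0794). Without tube library B that had no 4sU, the value in tubes was -1.999 and passed (edgeR adjusted p = 0.0205), whereas leaving out tube library A of the same group gave -0.23 (edgeR adjusted p = 0.826). Where a library was left out, the remaining one was assumed to vary like the other groups.

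Fdft1, squalene synthase, catalyses the first step that is given over to sterols. It stood at 224 and 192 CPM without 4sU, 151 and 204 CPM at 200 µM, and 255 and 178 CPM at 800 µM in fixed cells. Tube levels were 103 and 125 CPM without 4sU, 132 and 151 CPM at 200 µM, and 117 and 127 CPM at 800 µM. Libraries with and without 4sU overlapped in fixed cells, while in tubes both libraries at 200 µM lay above both without 4sU. The 4 log2 fold changes with 4sU ran from -0.23 to 0.31 (lowest edgeR adjusted p = 0.35).

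Sqle, squalene epoxidase, adds the oxygen that the ring closure needs. It stood at 142 and 142 CPM without 4sU, 133 and 126 CPM at 200 µM, and 148 and 112 CPM at 800 µM in fixed cells. In tubes it stood at 182 and 176 CPM without 4sU, 182 and 159 CPM at 200 µM, and 160.0 and 155 CPM at 800 µM. Its log2 fold changes with 4sU lay between -0.18 and -0.07 (lowest edgeR adjusted p = 0.53), and the interval of the lowest, at 800 µM in tubes, ran from -0.47 to 0.11.

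Lss, lanosterol synthase, closes the sterol rings. It stood at 76.1 and 81.1 CPM without 4sU, 94.8 and 79.2 CPM at 200 µM, and 132 and 97.8 CPM at 800 µM in fixed cells. Its levels in tubes were 77.0 and 72.6 CPM without 4sU, 81.7 and 91.1 CPM at 200 µM, and 75.6 and 82.0 CPM at 800 µM. Both fixed libraries at 800 µM lay above both without 4sU, with a log2 fold change of 0.54 (SE 0.15, edgeR adjusted p = 0.0633). DESeq2 called it (log2 0.58, DESeq2 adjusted p = 0.0234). Without fixed 800 µM library B the value was 0.74 (edgeR adjusted p = 0.00314), and without library A it was 0.37 (edgeR adjusted p = 0.232).

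Srebf2 stood at 78.0 and 70.8 CPM without 4sU, 83.5 and 45.6 CPM at 200 µM, and 39.2 and 69.6 CPM at 800 µM in fixed cells. In tubes the levels were 138 and 135 CPM without 4sU, 88.6 and 78.4 CPM at 200 µM, and 112 and 97.1 CPM at 800 µM. In tubes all 4 libraries with 4sU lay below both without it, with a log2 fold change of -0.71 at 200 µM (95% interval -1.20 to -0.22, edgeR adjusted p = 0.0928) and -0.38 at 800 µM (-0.86 to 0.10, edgeR adjusted p = 0.414). In fixed cells the values overlapped at 200 µM, and both libraries at 800 µM lay below both without 4sU. There the log2 fold change at 800 µM was -0.44 (edgeR adjusted p = 0.316), which became -0.92 without library B (edgeR adjusted p = 0.0169) and -0.04 without library A (edgeR adjusted p = 0.95).

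Insig1 stood at 148 and 186 CPM without 4sU, 203 and 197 CPM at 200 µM, and 124 and 159 CPM at 800 µM in fixed cells. In tubes it stood at 171 and 173 CPM without 4sU, 192 and 296 CPM at 200 µM, and 187 and 189.8 CPM at 800 µM. The single highest value was that of tube library B at 200 µM. The log2 fold change at 200 µM was 0.26 in fixed cells (edgeR adjusted p = 0.572) and 0.50 in tubes (SE 0.18, edgeR adjusted p = 0.107). Without tube 200 µM library A the value in tubes was 0.79 (edgeR adjusted p = 0.0278), and without library B it was 0.15 (edgeR adjusted p = 0.728). At 800 µM the log2 fold change was -0.24 in fixed cells and 0.13 in tubes (edgeR adjusted p = 0.464 and 0.765).

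**Figure D2:**
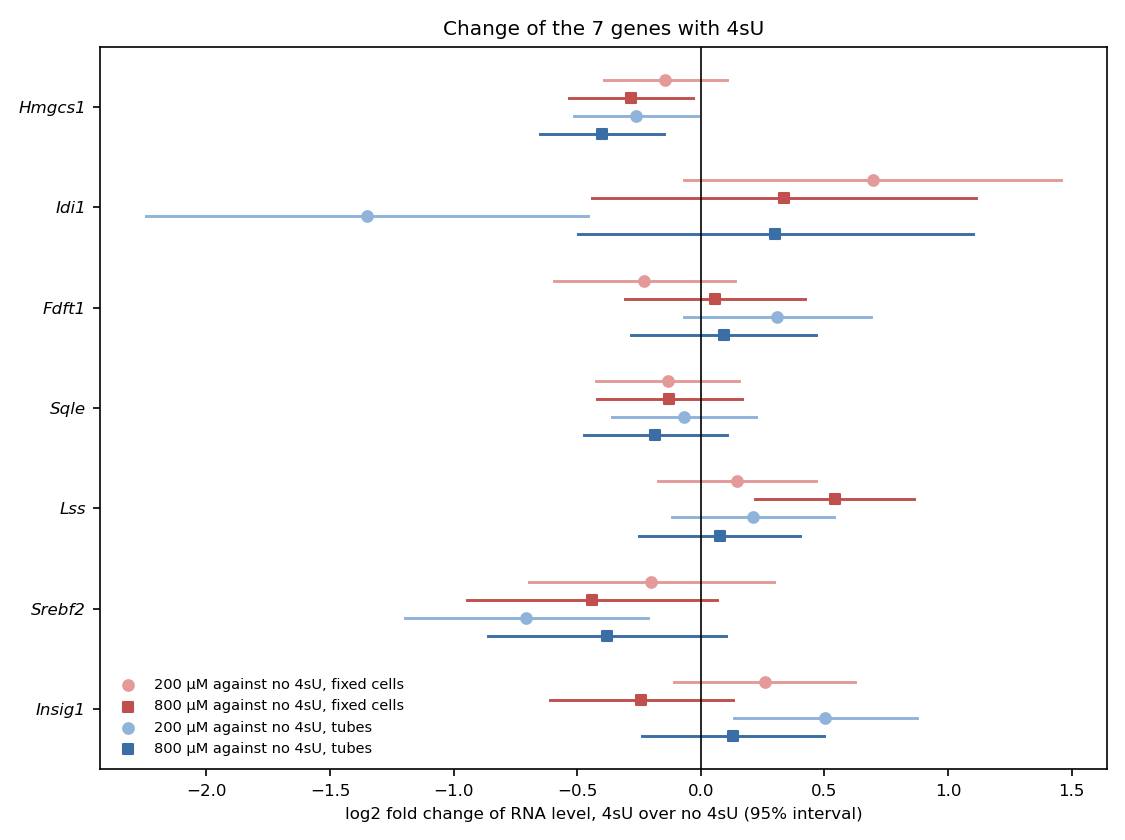
Log2 fold change of each gene with 4sU over no 4sU (horizontal axis) with 95% intervals, for each dose and procedure, from edgeR. The lowest value is that of Idi1 at 200 µM in tubes, -1.35 with an interval of -2.24 to -0.46, and no value passed the threshold.

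The dose step and the difference between procedures in the response to 4sU were tested next, and no member was called in them. Of the 7 genes, 0 were called for 800 µM against 200 µM in fixed cells and 0 in tubes, against 0% of all genes in each (edgeR). Likewise 0 of 7 differed between fixed cells and tubes in the response to 200 µM, and 0 of 7 in the response to 800 µM, again against 0% of all genes (edgeR). At an unadjusted p under 0.05, 2 of 7 members and 872 of all genes (7.87%) passed for the dose step in fixed cells, and 2 of 7 and 987 (8.91%) in tubes. For the differences between procedures, 2 of 7 and 993 of all genes (8.96%) passed at 200 µM, and 1 of 7 and 654 (5.9%) at 800 µM. DESeq2 called none of the 7 in these comparisons. Over all genes DESeq2 called 0 for the dose step in fixed cells and 12 in tubes, and for the difference between procedures 9 at 200 µM and 0 at 800 µM.

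Idi1 had the largest values here. Its log2 fold change for 800 µM over 200 µM in tubes was 1.65 (SE 0.41, edgeR adjusted p = 0.267), and its response to 200 µM in fixed cells minus that in tubes was 2.05 (SE 0.56, edgeR adjusted p = 0.304). The second of these passed without tube library B that had no 4sU (log2 2.695, edgeR adjusted p = 0.036), and was 0.92 without tube library A that had no 4sU (edgeR adjusted p = 0.771). The log2 fold change of Insig1 for 800 µM over 200 µM was -0.50 in fixed cells (95% interval -0.87 to -0.13) and -0.37 in tubes (-0.74 to -0.01), with edgeR adjusted p = 0.529 and 0.548. That of Lss was 0.40 in fixed cells (edgeR adjusted p = 0.537). Without fixed 800 µM library B, the dose steps of Lss, 0.60, and Insig1, -0.69, passed in fixed cells (edgeR adjusted p = 0.028 and 0.0414). Without library A of that group they were 0.18 for Lss and -0.32 for Insig1 (edgeR adjusted p = 0.958 and 0.893).

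Fixed cells and tubes without 4sU were compared to set the procedures side by side without label. Fdft1 was higher and Srebf2 lower in fixed cells, and these 2 of 7 genes were called, against 31.4% of all genes (edgeR). Fdft1 averaged 208 ± 23.1 CPM in fixed cells and 114 ± 16.1 CPM in tubes (SD, n = 2 each), a 1.82-fold difference (log2 0.86, SE 0.18, edgeR adjusted p = 0.00127). Srebf2 averaged 74.4 ± 5.03 CPM in fixed cells and 136 ± 2.29 CPM in tubes, a ratio of 0.546 (log2 -0.87, SE 0.23, edgeR adjusted p = 0.00835). The call of Srebf2 was lost without fixed library B that had no 4sU, at a like size of -0.83 (edgeR adjusted p = 0.0699). Fdft1 passed without any 1 of the 4 libraries, with log2 values of 0.73 to 1.02.

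For the other 5 genes the log2 differences were 0.32 for Idi1, 0.07 for Lss, -0.04 for Insig1, -0.15 for Hmgcs1 and -0.34 for Sqle (edgeR adjusted p = 0.0749 for Sqle and higher for the rest). Idi1 passed at 1.44 without tube library A (edgeR adjusted p = 0.0106) and was at -0.33 without tube library B. When the scaling rested on genes with a low share of new RNA (the third with the lowest values), the median of all genes moved by -0.32, Lss turned to -0.25 and Idi1 to -0.01. Under that scaling Hmgcs1 at -0.47 and Sqle at -0.66 passed too (edgeR adjusted p = 0.00274 and 0.00104). Ctsb, which overlaps the end of Fdft1, stood at 468 and 507 CPM in fixed cells and at 566 and 503 CPM in tubes without 4sU (log2 -0.13, SE 0.12, edgeR adjusted p = 0.449). The share of new RNA of Ctsb was 8.02% to 16.6% over the 8 labelled libraries, against 30.6% to 55.5% for Fdft1.

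Over all doses, the 6 fixed libraries and the 6 tube libraries did not overlap in 2 of 7 genes, against 27.2% of all genes. Fdft1 lay at 151 to 255 CPM in fixed cells and at 103 to 151 CPM in tubes, where the lowest fixed value was 150.8 and the highest tube value 150.6. Sqle lay at 112 to 148 CPM in fixed cells and at 155 to 182 CPM in tubes. Srebf2 lay at 39.2 to 83.5 CPM in fixed cells and at 78.4 to 138 CPM in tubes, and so overlapped.

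Other genes of sterol and lipid metabolism were read from lists that were chosen with earlier results of these data known. In fixed cells against tubes without 4sU, 0 rose and 1 fell of 15 other enzymes of sterol synthesis (edgeR adjusted p under 0.05), with a median log2 of 0.00 beside -0.01 for all genes. The counts of this and the next lists stand beside 31.4% of all genes called in this comparison. Mvd, which makes isopentenyl diphosphate, stood at 219 and 211 CPM in fixed cells and at 314 and 375 CPM in tubes (log2 -0.68, SE 0.14, edgeR adjusted p = 0.00148).

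Among 10 genes that control SREBPs, 3 rose and 0 fell, with a median log2 of -0.02. Insig2, the second Insig protein, stood at 22.4 and 21.1 CPM in fixed cells and at 6.74 and 15.3 CPM in tubes (log2 0.95, SE 0.34, edgeR adjusted p = 0.0378). The ubiquitin ligase Rnf139 (log2 0.85) and the ubiquitin-conjugating enzyme Ube2g2 (log2 0.81) rose as well. Of 12 fatty acid genes that SREBPs drive, 0 rose and 5 fell: Lpin1 (log2 -0.64), Acaca (-0.55), Fasn (-0.51), Scd1 (-0.37) and Scd2 (-0.35), which cover fatty acid synthesis, desaturation and lipid assembly. Of 13 genes of sterol transport, uptake, storage and LXR signalling, 0 rose and 2 fell, the lipoprotein receptor family members Lrp8 (log2 -0.77) and Lrp1 (-0.67). Of the 12 fibroblast markers, 2 rose and 6 fell in the same comparison (median log2 -0.36). Col1a1 fell, at 1018 and 820.4 CPM in fixed cells against 2139 and 1894 CPM in tubes. The 2 that rose were Vim, at 4827 and 4718 CPM against 2993 and 2758 CPM, and S100a4, at 10859 and 9860 CPM against 6353 and 7177 CPM. The part of these markers in the lipid genes' values was not tested. With the scaling on genes with a low share of new RNA, Insig2, Rnf139 and S100a4 were no longer called, and none of the 11 calls of lipid genes changed sign. The list counts under that scaling were 1 rose and 4 fell for the control genes, 0 and 5 for the other enzymes, 0 and 6 for the fatty acid genes and 0 and 4 for the transport genes.

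With 4sU the lists held 1 call over the 4 comparisons, in which 0.812% to 3.75% of all genes were called (edgeR). Fads1, a fatty acid desaturase, rose at 200 µM in tubes to 300.4 and 270 CPM, against 188 and 180.4 CPM without 4sU (log2 0.63, SE 0.12, edgeR adjusted p = 0.0116). The 15 other enzymes of sterol synthesis, the 10 control genes and the 13 transport genes had 0 calls in these comparisons (edgeR). At an unadjusted p under 0.05, 0 to 4 of the enzymes, 0 to 2 of the control genes, 1 to 4 of the fatty acid genes and 0 to 4 of the transport genes passed in a comparison, beside 12.6% to 20.8% of all genes. DESeq2 called 0 enzymes, 0 transport genes and 1 control gene, Ubxn4, at 800 µM in fixed cells.

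The share of newly made RNA was read from the deposited new-to-total ratio, the fraction of a gene's RNA estimated to have been made in the presence of 4sU. Hmgcs1 and Insig1 were mostly new in every labelled library, with 76.2% or more, and no other member had a median above 51.6%. Over the 8 labelled libraries the median ratio was 90.9% for Hmgcs1, 90.8% for Insig1, 51.6% for Sqle, 43.8% for Lss, 42.9% for Fdft1, 37.2% for Idi1 and 25.6% for Srebf2. Hmgcs1 and Insig1 each stood above 94.2% or more of the 5532 genes with at least 100 counts in every labelled library. Srebf2 stood above 33.3% of them. The median of those genes was 25.9% to 32.1% at 800 µM and 34.8% to 35.7% at 200 µM in fixed cells, and 36.2% to 36.4% at 800 µM and 39.8% to 42.3% at 200 µM in tubes. In each labelled library 5 or 6 of the 7 members lay above that median.

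Hmgcs1 had ratios of 76.2% and 93.4% at 800 µM and of 100% in both libraries at 200 µM in fixed cells. In tubes its ratios were 88.1% and 87.5% at 800 µM, and 88.3% and 97.2% at 200 µM. The fixed 200 µM values were at the ceiling of the scale, and there the point estimate lay above the deposited 0.95 quantile, 99.9% in both libraries, with 0.05 quantiles of 97.8% and 96.9%. Insig1 had ratios of 92.4% and 85.0% at 800 µM and of 100% and 97.4% at 200 µM in fixed cells. In tubes its ratios were 86.6% and 84.6% at 800 µM, and 93.8% and 89.3% at 200 µM.

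Sqle ranged from 38.7% to 62.2%, Lss from 36.1% to 52.0%, Fdft1 from 30.6% to 55.5% and Srebf2 from 13.4% to 31.9%. Within these genes the lowest values were those of fixed library A at 800 µM for Sqle, Lss and Fdft1, and of tube library A at 800 µM for Srebf2. In fixed cells the ratio of Idi1 was 23.8% and 36.9% for the 800 µM libraries and 30.3% and 37.6% for the 200 µM libraries. In tubes it was 32.6% and 38.2% for the 800 µM libraries and 88.8% and 61.1% for the 200 µM libraries. The pair of high values belonged to the tube libraries where the level of Idi1 was 14.8 and 18.8 CPM. They rested on 68.8 and 109.5 counts, and their deposited 0.05 to 0.95 quantiles were 74.0% to 96.4% and 50.2% to 71.4%. Idi1 fell below the count minimum of 100 in the first of them and so had no test of the ratio.

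**Figure D3:**
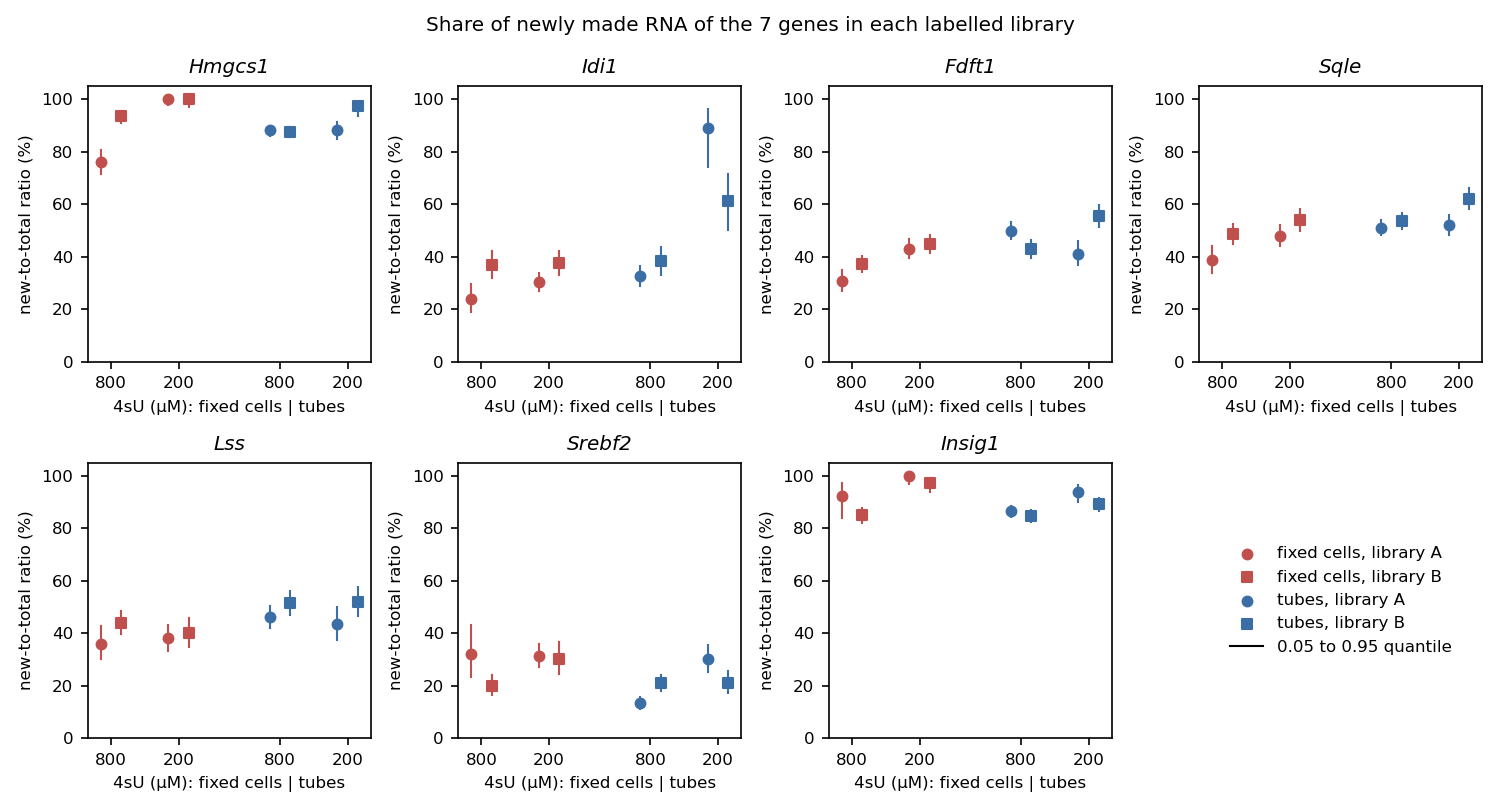
New-to-total ratio in percent of each gene in the 8 labelled libraries, by 4sU dose, with fixed cells on the left and tubes on the right; bars span the deposited 0.05 to 0.95 quantiles. Hmgcs1 and Insig1 lie at 76.2% or higher throughout, Srebf2 at 31.9% or lower, and Idi1 stands out in tubes at 200 µM with 88.8% and 61.1%.

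The ratios were compared with limma on the logit scale for the 6 members with enough counts. For fixed cells against tubes, 1 of 6 was called at 200 µM, against 0.886% of all genes, and 0 of 6 at 800 µM, against 0.0723%. For 800 µM against 200 µM, 1 of 6 was called in fixed cells, against 0.723% of all genes, and 0 of 6 in tubes, against 0.0904%. Without each library in turn, 0 to 1039 of all genes were called for fixed cells against tubes at 800 µM, and 48 to 909 for the dose step in fixed cells. In the 2 comparisons with no call, 0 of 6 passed at an unadjusted p under 0.05 (limma). No second tool was run on the ratio. The called gene was Hmgcs1 both times. Its mean ratio was 100% in fixed cells and 92.8% in tubes at 200 µM (limma adjusted p = 0.0367), and 84.8% at 800 µM and 100% at 200 µM in fixed cells (limma adjusted p = 0.0179). Both calls involve the ceiling value, and with the untransformed ratio they were lost (differences of 0.07 and -0.15 on the scale of 0 to 1, limma adjusted p = 0.403 and 0.161). They were also lost without either fixed 200 µM library, the first without tube 200 µM library A and the second without fixed 800 µM library A.

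Insig1 was not called, with mean ratios of 98.7% in fixed cells and 91.5% in tubes at 200 µM, and 88.7% at 800 µM and 98.7% at 200 µM in fixed cells (limma adjusted p = 0.195 and 0.242). Without fixed 200 µM library B both passed (limma adjusted p = 0.0122 and 0.0112), which leaves a single library at the ceiling of 100% with its spread taken from the other groups. Sqle, Lss and Fdft1 had lower mean ratios in fixed cells than in tubes at both doses. At 800 µM these were 43.6% against 52.4% for Sqle, 40.0% against 48.9% for Lss and 33.9% against 46.4% for Fdft1, with limma adjusted p of 0.371, 0.355 and 0.263. The median of all tested genes was lower in fixed cells in the same comparison, by 0.31 on the logit scale. The means of Srebf2 were the other way round, with 25.9% in fixed cells and 17.2% in tubes (limma adjusted p = 0.372). Its libraries overlapped, at 31.9% and 19.9% in fixed cells and 13.4% and 21.0% in tubes.

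Multiplying level and ratio splits each level into new and old RNA. At 800 µM the new RNA of Hmgcs1 was 275 and 299.7 CPM in fixed cells and 302 and 311 CPM in tubes, and its old RNA was 85.7 and 21.0 CPM in fixed cells and 40.9 and 44.6 CPM in tubes. The libraries overlapped in both. New RNA of Srebf2 was 12.5 to 26.7 CPM over the 8 labelled libraries, while its old RNA was 26.7 to 57.4 CPM in fixed cells and 61.9 to 97.0 CPM in tubes. Old RNA is computed from the level, which for Srebf2 was lower in fixed cells without 4sU as well (74.4 against 136 CPM). The share of all genes with such a separation in old RNA was not determined. For Idi1 the new RNA was 18.2 to 30.9 CPM in fixed cells and 11.5 to 21.3 CPM in tubes. Its old RNA was 31.2 to 71.3 CPM in fixed cells and 44.0 and 25.3 CPM in tubes at 800 µM, against 1.66 and 7.32 CPM in tubes at 200 µM. The low levels of Idi1 in those libraries were thus low in old RNA more than in new RNA.

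If RNA levels were steady and decay first-order, which was not tested, the ratios at 800 µM would correspond to half-lives of 0.965 and 0.509 h in fixed cells and 0.652 and 0.668 h in tubes for Hmgcs1. For Insig1 they would be 0.538 and 0.731 h in fixed cells and 0.691 and 0.740 h in tubes. For Srebf2 they would be 3.60 and 6.24 h in fixed cells and 9.66 and 5.88 h in tubes, where the libraries overlapped. The ratios of Srebf2 at 200 µM would correspond to 3.69 and 3.86 h in fixed cells and 3.87 and 5.88 h in tubes.

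**Figure D4:**
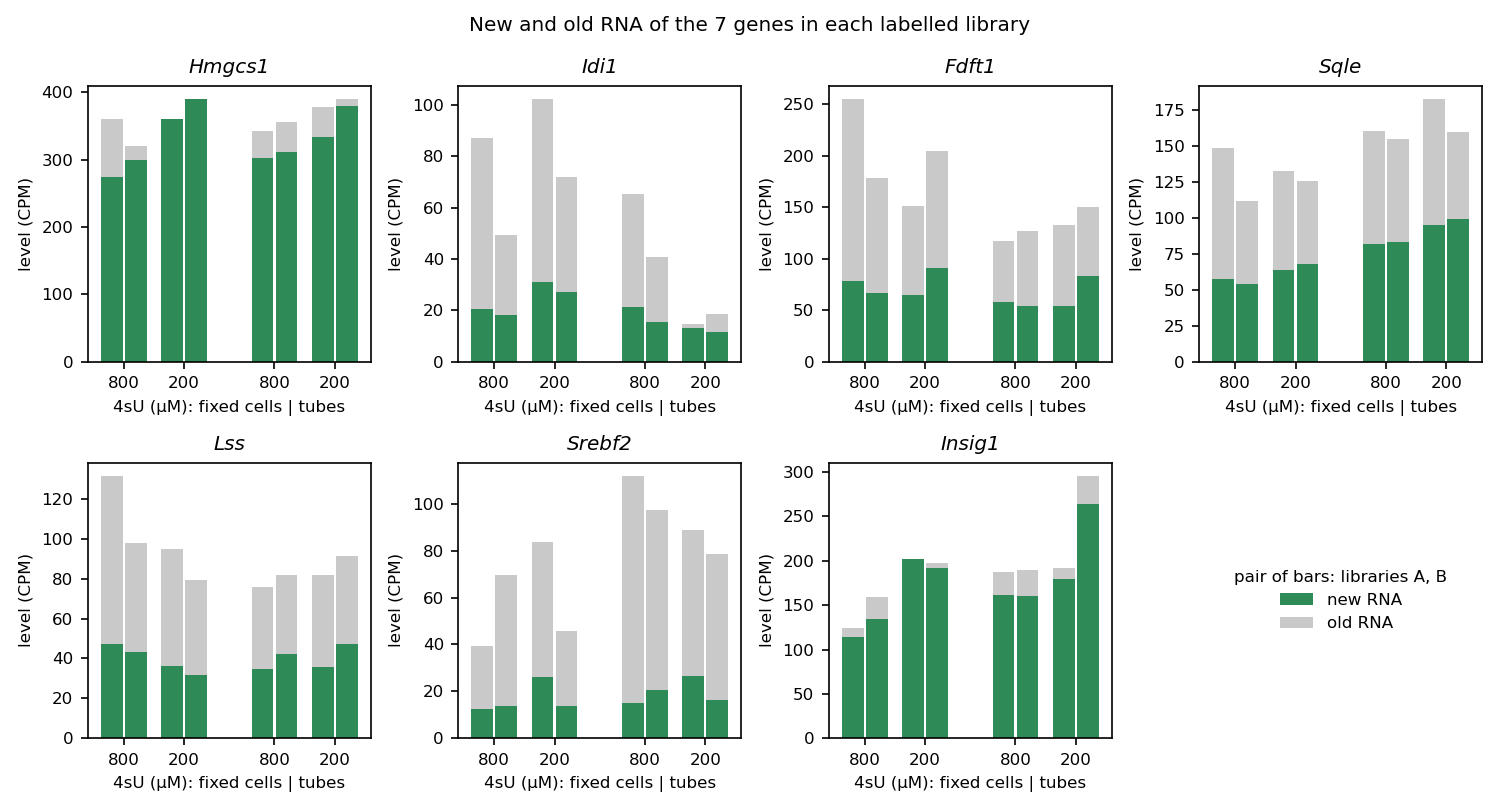
New RNA (green) and old RNA (grey) of each gene in CPM, stacked, in the 8 labelled libraries by 4sU dose, with fixed cells on the left and tubes on the right. At least 76.2% of each bar of Hmgcs1 and Insig1 is new, and old RNA of Idi1 drops to 1.66 and 7.32 CPM in tubes at 200 µM.

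Over 14 other enzymes of sterol synthesis with enough counts, the median of the mean ratios was 29.7%, between 16.4% for Ebp and 57.5% for Msmo1, beside 35.3% for all 5532 genes. It was 38.3% over 7 control genes, 25.2% over 9 fatty acid genes and 26.98% over 9 transport genes, where Stard4, a carrier of sterols between membranes, was highest at 55.2%.

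The 7 members did not follow a common profile over the 12 libraries. Pearson's r of each gene's log2 level with the mean of the other 6 ran from -0.64 for Fdft1 to -0.00 for Hmgcs1, a description in which the points share libraries and depth. The lowest pair was Fdft1 and Srebf2 at -0.89, and the highest was Sqle and Srebf2 at 0.615. The genes most like the mean profile of the 7 were Tlk2 at 0.81, Kdm3a at 0.80, Aco1 at 0.78, Avl9 at 0.78 and Ddx20 at 0.75, among 6913 genes averaging at least 100 counts. These are the highest values picked from that many genes. A mean over genes without a common profile need not resemble any of the members.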

How the data were processed

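Total RNA of 12 SLAM-seq libraries was analysed from 1 deposited table. Its deposited read counts are expected counts (non-whole values made up 16.2% to 22.0% per library). The ratio is a deposited fraction (maximum a posteriori value, posterior mean, 0.05 and 0.95 quantiles), and the deposited alpha and beta scores describe its distribution and were not used. Cutadapt, STAR 2.7.10b and Bowtie2 2.3.0 appear, with no role, in the submitters' processing notes. Build, annotation and ratio tool: not given in the sources used here. No ratio was used for libraries without 4sU, so it has no unlabelled background.

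The members and lists were chosen with earlier results of these data known. Counts were rounded and tested with edgeR 4.0.16 (R 4.3.3): filterByExpr (minimum count 10, total 15), TMM, 1 fit of 6 groups, quasi-likelihood F test, Benjamini-Hochberg adjustment at 0.05 over 11080 genes. Ratios were clipped to 0.001 to 0.999 and compared with limma 3.58.1 (trend, logit scale) over 5532 genes with at least 100 counts in each of 8 labelled libraries. DESeq2 1.42.0 was an alternative. New RNA is CPM times the ratio. Both tests were tested on simulated data. Gene IDs were matched to GENCODE M21 (15185 of 15217). Alternatives were RLE scaling, scaling on genes with a low ratio, no filter, only the groups compared, a replicate block, leaving out each library, and for the ratio the posterior mean, count minimums of 20 and 500 and no transformation. Named genes are the 7 members, at most 3 list members past the threshold by smallest p plus those that account for a count of 5 or fewer, and the 5 genes most like the mean profile. Ctsb, Ubxn4, Col1a1, Vim, S100a4, Lgals1, Pdgfra, Pdgfrb, Ebp, Msmo1, Stard4 and the genes most like Idi1 were chosen after their values were seen. Some genes of the pathway are not reported here and were left out of the lists.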

Additional observations from a re-analysis of the deposited data

How the results depend on the processing

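Of 686 log2 fold changes of the 7 genes recomputed under the alternatives for counts, 29 passed the threshold where the reported one had not, 1 no longer passed and 50 changed sign with neither value called. Of 208 ratio differences, 2 newly passed, 9 no longer passed and 11 changed sign with neither value called. The number of members called in fixed cells against tubes without 4sU, reported as 2, was 4 when scaled on genes with a low ratio (the third with the lowest values), and 1 to 3 without each library. That scaling moved the median of all genes by -0.17 to 0.06 in the other comparisons. For 4sU at 200 µM in fixed cells, reported as 0, it was 1 (Idi1) with no filter or with only the groups compared, and for 800 µM in fixed cells 1 with DESeq2, RLE scaling or no filter (Lss) or low-ratio scaling (Hmgcs1), and 0 to 2 without each library. For 200 µM in tubes, reported as 0, it was 3 with no filter, 2 with only the groups compared, 1 with low-ratio scaling and 0 to 1 without each library. For 800 µM in tubes it was 1 (Hmgcs1) with DESeq2, low-ratio scaling or only the groups compared. The dose step in fixed cells had 0 to 2 calls without each library, the dose step in tubes 1 (Idi1) with no filter or only the groups compared, and the difference at 200 µM 1 (Idi1) with no filter and 0 to 1 without each library. The calls in the ratio, 1 each, were 0 with the untransformed ratio in both comparisons, 0 with the posterior mean for fixed cells against tubes at 200 µM, and 0 to 1 without each library in both. The cause of these changes was not tested. The labels do not say whether the replicate letters pair the samples. Same-letter deviations correlated at -0.11 to 0.11 over 15 pairs of groups, which cannot exclude a pairing where the noise between libraries is larger. With the replicate block the number of members called stayed at 2 without 4sU, at 1 in each ratio comparison with a call and at 0 elsewhere. Over all genes, calls for 200 µM in fixed cells numbered 90 as reported, 208 with low-ratio scaling, 252 with no filter and 652 with only the groups compared. For 800 µM in fixed cells they numbered 295, with 86 higher, against 352 (167 higher) with RLE scaling, 557 (331 higher) with DESeq2, 713 (41 higher) with low-ratio scaling, 816 (388 higher) with no filter and 40 with only the groups compared. For tubes they numbered 416 (262 higher) at 200 µM, against 854 with no filter and 535 (85 higher) with low-ratio scaling, and 207 (101 higher) at 800 µM, against 482 with no filter, 400 with only the groups compared and 316 (49 higher) with low-ratio scaling. Fixed cells against tubes had 3480 calls (1796 higher), against 4278 (799 higher) with low-ratio scaling. With no filter, the dose steps had 127 calls in fixed cells and 92 in tubes and the differences 76 and 24, where 0 were reported. In the ratio, 49 calls for fixed cells against tubes at 200 µM became 10 with the posterior mean and 28 untransformed, and 4 at 800 µM became 0 and 46. For the dose step, 40 calls in fixed cells became 17 and 0, and 5 in tubes became 0 and 1. The shorter sterol regulatory element core matched 2 promoters in place of 1. Without each library, all-gene calls were 2 to 9 at 200 µM and 24 to 1199 at 800 µM in fixed cells, 18 to 210 at 200 µM and 22 to 88 at 800 µM in tubes, and 2151 to 2649 for fixed cells against tubes. They were 0 to 484 for the dose step in fixed cells, 0 to 2 for that in tubes, and 0 to 3 at 200 µM and 0 to 123 at 800 µM for the differences. In the ratio they were 32 to 66 at 200 µM and 0 to 1039 at 800 µM for fixed cells against tubes, and 48 to 909 in fixed cells and 0 to 13 in tubes for the dose step. With 2 libraries per group, a log2 difference of 2.05 for Idi1 (SE 0.56) did not pass.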

Other observations

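The uneven levels of Idi1 were shared by genes outside the sterol pathway. This was seen after the values of Idi1 were known. Among 6919 other genes, 15 had a Pearson's r of at least 0.9 with Idi1 over the 12 libraries, which share depth and groups. The 5 closest were Sdhd, a subunit of succinate dehydrogenase (r = 0.985), Ost4, a subunit of oligosaccharyltransferase (0.976), Mrps28, a mitochondrial ribosomal protein (0.972), the metalloprotease Adam9 (0.964) and Hacd2, a dehydratase of fatty acid elongation (0.95). A count of 15 is not particular to Idi1. With the same limit on r, Fdft1 had 207 such genes, Srebf2 71, Sqle 31, Hmgcs1 5, Lss 5 and Insig1 0.

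Sdhd stood at 22.9 and 31.3 CPM without 4sU, 65.4 and 54.4 CPM at 200 µM, and 50.9 and 30.0 CPM at 800 µM in fixed cells. In tubes it stood at 28.6 and 8.13 CPM without 4sU, 5.81 and 7.35 CPM at 200 µM, and 36.1 and 22.1 CPM at 800 µM. The low libraries were those in which Idi1 was low. Such a match follows from the choice of Sdhd and Mrps28 by their correlation with Idi1, and is no separate support. In tubes Mrps28 stood at 19.5 and 5.15 CPM without 4sU, 6.45 and 5.47 CPM at 200 µM, and 19.6 and 12.6 CPM at 800 µM. The new-to-total ratio of Mrps28 in tubes was 31.7% and 34.8% for the 800 µM libraries, and 64.2% and 57.6% for the 200 µM libraries. Its ratio in the 4 labelled fixed libraries was 11.5% to 33.2%. That of Adam9 in tubes was 18.6% and 23.1% for the 800 µM libraries, and 54.0% and 51.3% for the 200 µM libraries, and 2.90% to 13.1% in fixed cells. The ratio of Sdhd in tubes was 27.3% and 37.3% for the 800 µM libraries, and 50.7% and 32.1% for the 200 µM libraries, which overlapped. In the tube 200 µM libraries Sdhd, Mrps28 and Adam9 had lower levels than Idi1, which had 68.8 and 109.5 counts there. Their ratios in library A thus rested on fewer counts than the minimum of 100 used for the ratio tests. Those in library B rested on fewer than 109.5 counts. Idi1 had counts that were not whole numbers in 12 of 12 libraries, as had 0% of the 15 genes most like Idi1 and 4.08% of all genes averaging at least 100 counts. The cause was not tested.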
